A study of Drosophila melanogaster with 4 samples.

Results

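HP2 is a large chromatin protein of Drosophila, encoded by Su(var)2-HP2. It binds the heterochromatin protein HP1a, and mutations in its gene suppress position-effect variegation, the silencing of genes placed next to heterochromatin. HP2 is best known from pericentric heterochromatin and chromosome 4, where it lies with HP1a, and it also occupies sites on the mostly euchromatic chromosome arms. The narrow sites on 1 such arm, 2L, are described here. They are the 1126 enriched regions under 4000 bp wide whose midpoints lie in the body of 2L, from position 1000001 to 20011544 of FlyBase release 5. The stretch from 9900001 to 10900000 was left out. The regions come from the authors' list for the replicate set, here called the combined list, and make up 8.89% of its 12660 regions. They are 92.1% of the 1223 combined regions in this part of 2L.

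The study mapped HP2 by chromatin immunoprecipitation with sequencing (ChIP-seq) in larval nuclei of the wild-type strain Oregon-R at the third instar, with an antibody named Ab2-90 in the labels. There were 2 ChIP libraries and 2 input libraries, numbered 1 and 2, and no treatment or mutant was compared. The labels pair each ChIP library with the like-numbered input, against which its regions were called. The tissue was whole larvae as far as the labels say, so cell types cannot be told apart, and no source used here says whether the replicates came from separate collections. Region lists hold no read counts, and the depth of the libraries is unknown.

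Position and width in the combined list chose the regions, so their widths, positions and combined scores are descriptions and were not tested. The overlaps with the replicate lists are not independent of the choice either, because the combined list stands for the same 2 ChIP libraries. The smallest p of an exact two-sided sign-flip test over 2 libraries is 0.5, and none was run. The score of a region is the authors' own value on a scale that no source used here states. It is used only within a list, where a percentile gives the share of regions in that list that score no higher. Bracketed ranges after a share are exact Clopper-Pearson 95% intervals, which cover counting error only, and neighbouring regions are not independent.

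Most narrow HP2 regions on 2L appeared in the combined list alone, but not most of those at least 1301 bp wide. Replicate 1 had an enriched region overlapping 237 of the 1126 by at least 1 bp, or 21.0% (18.7 to 23.5%), and replicate 2 overlapped 441, or 39.2% (36.3 to 42.1%). The mean share over the replicates was 30.1 ± 12.8% (SD, n = 2). Both replicates overlapped 164 regions, or 14.6% (12.6 to 16.8%). A further 277, or 24.6% (22.1 to 27.2%), were overlapped in replicate 2 alone and 73, or 6.48% (5.12 to 8.08%), in replicate 1 alone. Over all 12660 combined regions of any width these last 2 shares were 29.9% and 3.82%. The remaining 612 of the 1126, or 54.4% (51.4 to 57.3%), matched no region in either list. Neither replicate list held a region under 1301 bp. Among the 752 narrow regions at least that wide, a cut chosen after seeing the data, 35.6% matched none. The replicate lists themselves covered 3.89% (replicate 1) and 7.03% (replicate 2) of the body, so replicate 2 also had more sequence with which to overlap. The whole replicate lists held 4092 and 7017 regions. With the replicate 2 list cut to its 4092 highest-scoring regions, its share of the 1126 was 12.6%, below the 21.0% of replicate 1. The direction of this difference thus depended on where the replicate 2 list was cut. The cut removed low-scoring regions from replicate 2 only, so length and score cannot be told apart in it.

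The share seen in both replicates lay near that of all narrow regions, and the other shares did not. Over all 12660 combined regions 22.3% were overlapped in both replicates, 26.2% in replicate 1, 52.2% in replicate 2 and 43.9% in neither. Over the 11053 combined regions of the whole list that were under 4000 bp, the 2L members included, the corresponding shares were 14.1%, 18.4%, 45.4% and 50.3%. The 14.6% of the 2L regions is thus near the background of 14.1%, and nothing about the arm is read from it. Their 21.0% in replicate 1 and 54.4% in neither were above that background and their 39.2% in replicate 2 below it, differences that were not tested. These directions were not particular to 2L, but the X did not share all of them. Narrow regions of 3L and 3R, described below, had 22.5% and 21.3% in replicate 1 and 53.0% and 57.0% in neither. In replicate 2 they had 40.4% and 37.4%. Those of the X had 15.4% in replicate 1, below the background, 45.9% in replicate 2, slightly above it, and 51.0% in neither.

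**Figure D1:**
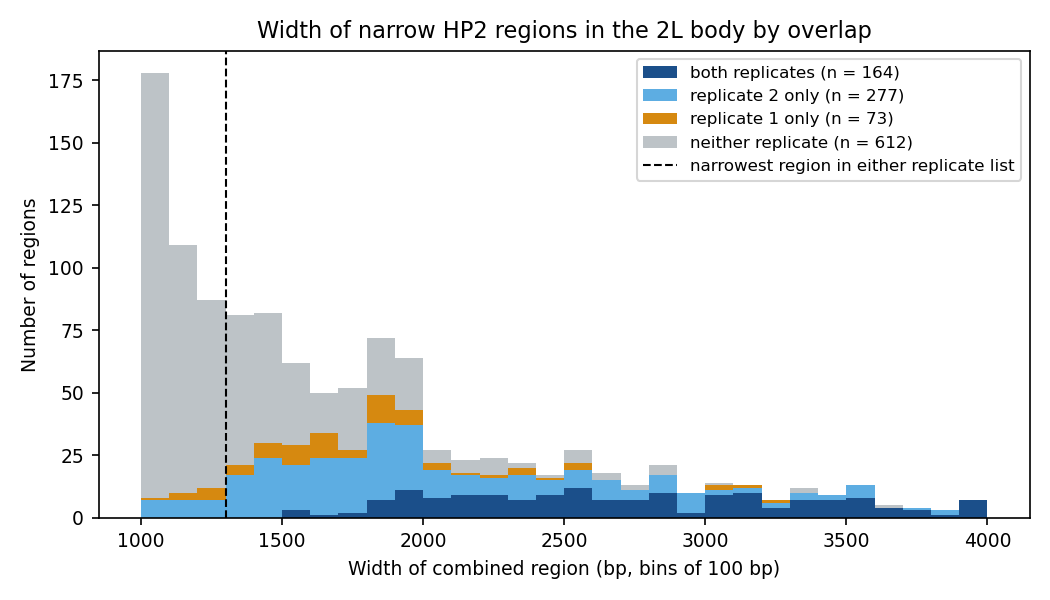
Number of narrow combined regions in the 2L body by width in bins of 100 bp, stacked by the replicate lists that overlap them; the dashed line is the narrowest region in either replicate list, 1301 bp. The narrowest bin is the fullest, and the 164 regions overlapped in both replicates begin at 1545 bp.

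The regions were short. Their median width was 1529 bp, with quartiles of 1193 and 2018.5 bp, and together they covered 1963 kb, or 10.9% of the 18.0 Mb body. The 178 regions of 1000 to 1099 bp formed the fullest bin of 100 bp. Numbers fell to 50 in the bin from 1600 bp, stood at 72 and 64 in the 2 bins from 1800 to 1999 bp, and dropped to 27 in the bin from 2000 bp. The widths therefore showed a second, smaller rise just under 2000 bp. No region in the combined list was narrower than 1001 bp, and none in either replicate list was narrower than 1301 bp, so the lists had different lower limits.

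Overlap with the replicates followed width. Of the 374 regions of 1001 to 1300 bp, 0 were overlapped in both replicates, which allows a share of up to 0.802% (3 counts of the total; the exact 95% upper bound is 0.981%), and 344 or 92.0% were overlapped in neither. Among the 463 regions of 1301 to 1999 bp, 24 or 5.18% (3.35 to 7.61%) were overlapped in both. The share was 39.6% (32.8 to 46.7%) of the 202 regions of 2000 to 2999 bp and 69.0% (58.1 to 78.5%) of the 87 regions of 3000 to 3999 bp. Only 4 of these 87 were overlapped in neither. Since a wider region has more bases to overlap and the replicate lists hold nothing under 1301 bp, the part of these limits in the rise was not tested.

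The width limit of 4000 bp was set on the regions themselves. The 3 widest members measured 3997, 3993 and 3991 bp, at 2L:8160176-8164172, 2L:5278920-5282912 and 2L:3476294-3480284. Their combined scores were 0.432, 0.415 and 0.350, and each was overlapped in both replicates. Just outside the limit lay regions of 4001, 4003 and 4005 bp at 2L:1125148-1129148, 2L:6082014-6086016 and 2L:4846406-4850410. Their combined scores were 0.335, 0.323 and 0.395, and each was overlapped in replicate 2 alone. Within 200 bp of the limit there were 10 regions on the narrow side and 16 on the wide side. The 97 regions of 4000 bp or more in the same body had a median width of 4725 bp, and 80 of them, or 82.5% (73.4 to 89.4%), were overlapped in both replicates.

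Combined scores of the narrow regions were low and tightly grouped, with a long upper tail. The median was 0.349, the quartiles 0.305 and 0.393, the lowest value 0.0845 and the highest 1.55. For all combined regions the median was 0.392 with an upper quartile of 0.567. The tail was made almost entirely of regions overlapped in both replicates, which accounted for 48 of the 50 highest-scoring narrow regions. Their median score was 0.477, with quartiles of 0.386 and 0.701. The medians were 0.311 for regions overlapped in replicate 1 alone, 0.339 for replicate 2 alone and 0.346 for neither. The upper quartiles were 0.352, 0.375 and 0.378 in the same order, each below the lower quartile of the regions overlapped in both. The upper 25% of scores, from 0.393 up, held 120 of the 164 regions overlapped in both. Combined score and overlap describe the same 2 ChIP libraries and are not independent. No like count was made for high-scoring narrow regions elsewhere in the combined list.

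**Figure D2:**
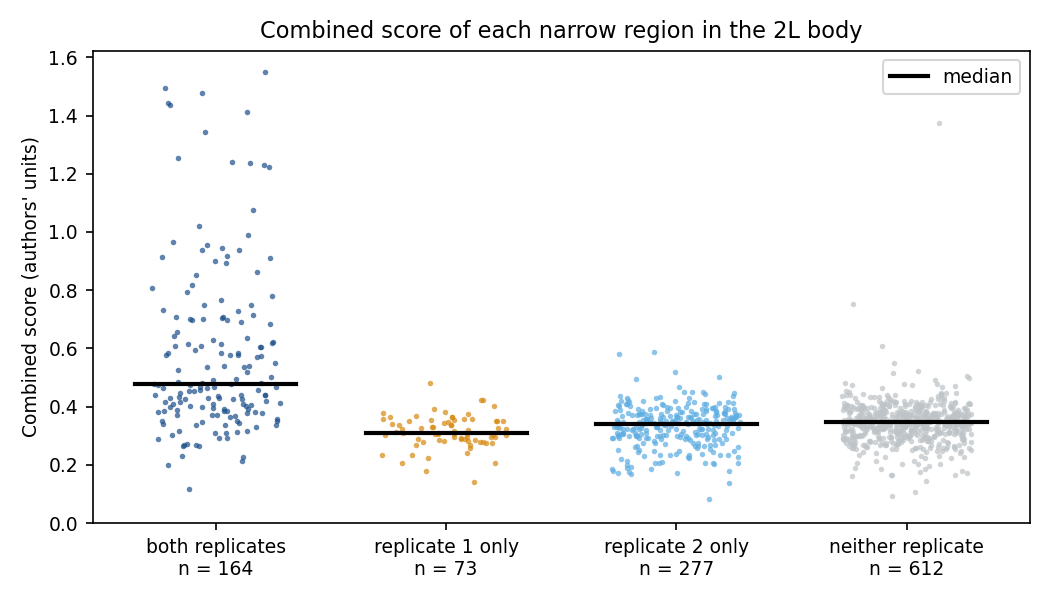
Combined score in the authors' units of each narrow region in the 2L body, grouped by the replicate lists that overlap it; each point is 1 region and black lines are medians. Scores above 0.8 are nearly all in the group overlapped in both replicates, apart from 1 region of 1.37 overlapped in neither.

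Below that upper group, the share overlapped in both replicates hardly moved with the score. The regions were split by score into 4 groups of 281 or 282. In the lowest group (0.0845 to 0.305), 14 regions or 4.96% were overlapped in both replicates and 147 or 52.1% in neither. In the second group 12 of 281 (4.27%) were overlapped in both and 63.7% in neither, and in the third 18 of 281 (6.41%) and 62.6%. In the highest group the shares were 42.6% and 39.0%. The highest group was also wider, with a median of 2168 bp against 1517, 1523 and 1403 bp in the other groups, in order of score. Across the 164 regions overlapped in both, the combined score rose with width (Spearman's rho 0.40), whereas across the 612 overlapped in neither the narrower regions tended to score higher (rho -0.35). These coefficients are across regions of the same libraries and carry no p.

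In the 164 regions overlapped in both replicates, the replicate regions mostly lay over each other, which the choice partly fixed. Both had to overlap the same combined region of under 4000 bp, and neither replicate list held a region under 1301 bp. The best-scoring overlapping regions of the replicates overlapped each other directly in 161 of the 164, sharing a median of 1925 bp. Their midpoints lay within 500 bp of each other in 136. In 3 cases the replicate regions lay apart and were bridged only by the combined region. The region at 2L:5278920-5282912 is one, with replicate 1 at 2L:5279444-5281055 and replicate 2 at 2L:5281181-5282772.

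The combined regions of these 164 cases were mostly larger than the replicate regions that overlapped them. Their median width was 2657 bp, against 2000 bp for the replicate 1 regions and 2182.5 bp for the replicate 2 regions. Replicate 1 regions covered a median of 76.3% of a combined region (quartiles 60.0 and 89.5%), and replicate 2 regions 90.3% (75.4 and 97.0%). The midpoint of the combined region lay a median of 137.75 bp from that of replicate 1 and 74.25 bp from that of replicate 2. These combined regions thus followed the outline of replicate 2 more closely than that of replicate 1. Among regions seen in 1 replicate, the replicate region was wider than the combined one in 22 of 73 for replicate 1 and 93 of 277 for replicate 2.

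The scores showed the same lean toward replicate 2. Across the 164 regions the combined score tracked the replicate 2 score with a Spearman's rho of 0.95 and the replicate 1 score with a rho of 0.68, and the replicates tracked each other with a rho of 0.62. These values describe regions that share their libraries, and the combined score is not independent of either replicate. The authors' way of combining the libraries is not stated in the sources used here.

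**Figure D3:**
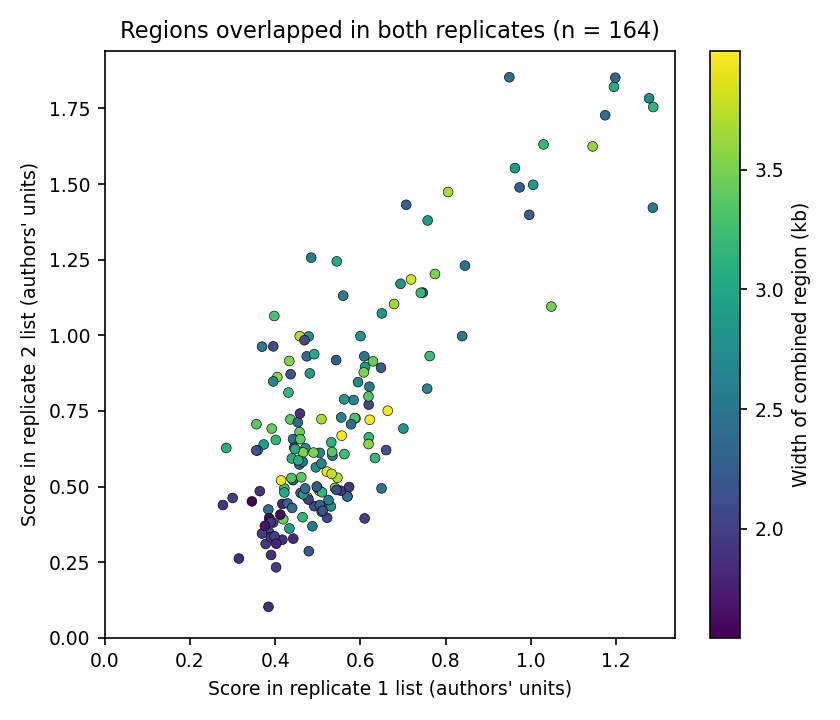
Score in the replicate 2 list against score in the replicate 1 list, both in the authors' units, for the 164 narrow 2L regions overlapped in both; each point is 1 region and colour gives the width of the combined region in kb. Most points crowd at low scores in both lists, and a sparse arm of high scorers runs to 1.29 in replicate 1 and 1.85 in replicate 2.

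Regions seen in both replicates ranged from low to high scores in each list. Their median replicate 1 score was 0.502, at percentile 31.9 of that list, and their median replicate 2 score was 0.627, at percentile 49.2. In 79 of the 164 the scores lay at or below percentile 50 of both lists, in 47 above percentile 50 of both, and in 21 above percentile 75 of both. Regions seen in 1 replicate had lower medians in the list concerned. The median percentile was 24.6 in the replicate 1 list for the 73 seen there alone, and 21.0 in the replicate 2 list for the 277 seen there alone.

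The 10 sites described next are the highest-scoring narrow regions among those overlapped in both replicates, so their presence in both was fixed by the choice. They rank from 1 to 11 among all 1126 narrow regions by combined score, since the seventh, described below, was overlapped in neither. The highest combined score, 1.55, belonged to 2L:19008086-19010432, 2347 bp wide, with 1.20 in replicate 1 and 1.85 in replicate 2. Next came 2L:15059016-15062066, 3051 bp wide, with a combined score of 1.50 and replicate scores of 1.19 and 1.82. The third was 2L:15497936-15500368, 2433 bp wide, with 1.48, 1.17 and 1.73 in the same order. All 3 lay at percentile 94.7 or higher in both replicate lists.

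Of the next sites, 2L:17471586-17474720 scored 1.44 combined, 1.29 in replicate 1 and 1.75 in replicate 2. At 2L:6497260-6500006 the scores were 1.43, 1.28 and 1.78. At 2L:5069876-5072296 they were 1.41, 0.950 and 1.85, which is the highest replicate 2 score among the regions overlapped in both. These sites lay on both sides of the stretch left out. The site at 2L:18150970-18153528 scored 1.34 combined, 1.29 in replicate 1 and 1.42 in replicate 2.

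The last 3 of these 10 sites were 2L:5007836-5011022, 2L:7495148-7497450 and 2L:19790412-19793272, with combined scores of 1.26, 1.239 and 1.237. They scored 1.03, 0.974 and 1.01 in replicate 1 and 1.63, 1.49 and 1.497 in replicate 2. The 10 sites were 2303 to 3187 bp wide, and in each the replicate 2 region covered at least 90.8% of the combined region. Their surroundings differed. The sites at 2L:15497936-15500368 and 2L:6497260-6500006 had no other combined region within 5 kb, while 2L:5069876-5072296 stood in a run of 13 regions.

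The best site differed in strength from one part of the arm to another. In each of the 18 windows of 1 Mb with at least 0.5 Mb of the body, the highest-scoring region overlapped in both replicates was taken. Combined scores of these 18 sites ran from 0.466 at 2L:14021336-14024696 and 0.468 at 2L:4937486-4941454 to 1.55 at 2L:19008086-19010432. The site at 2L:14021336-14024696 scored 0.534 in replicate 1 and 0.614 in replicate 2. At 2L:4937486-4941454 the scores were 0.556 and 0.668, at the 2 ends of a 3969 bp region whose replicate 1 part began at 4939966 and whose replicate 2 part ended at 4940081.

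Between these extremes the leaders included 2L:12545512-12547784, with 1.22 combined, 0.996 in replicate 1 and 1.40 in replicate 2. It stood alone, with the nearest other narrow region 36617 bp away. The window leader at 2L:9329658-9331842 lay 37405 bp from the next narrow region and scored 0.937, 0.747 and 1.14. By contrast, 2L:13201834-13205024 (0.911, 0.742 and 1.14) belonged to the run with the most narrow regions in the body. The site at 2L:11177634-11180230 scored 0.900 combined, 0.485 in replicate 1, where it was at percentile 27.5 of the list, and 1.26 in replicate 2.

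The other window leaders outside the first 10 scored 0.792 to 0.956 in the combined list. At 2L:1612488-1615374 the scores were 0.956 combined, 0.758 in replicate 1 and 1.38 in replicate 2. At 2L:2363710-2366486 they were 0.938, 0.694 and 1.17, and at 2L:8541110-8544772 they were 0.946, 0.806 and 1.47. All 3 lie on the telomere side of the stretch left out. The site at 2L:3464332-3467362 scored 0.806 combined, 0.545 in replicate 1 and 1.24 in replicate 2. At 2L:16718710-16720940 the scores were 0.792, 0.648 and 0.893.

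Regions seen in a single replicate reached combined scores of at most 0.483 for replicate 1 and 0.587 for replicate 2. The highest-scoring region overlapped in replicate 1 alone, 2L:4030464-4031874, had a combined score of 0.483 and a replicate 1 score of 0.674 at percentile 66.8. The next 2 were 2L:7451708-7453314 and 2L:8426844-8429230, each with a combined score of 0.423. For replicate 2 alone the leader was 2L:6060802-6064304, with 0.587 combined and 0.912 in replicate 2 at percentile 70.6. It was followed by 2L:12092726-12096244, with 0.580 and 1.01, at percentile 75.8 of that list. The third, 2L:9897850-9899960 (0.519), was matched over only 4.93% of its length, by a replicate 2 region that reached into the stretch left out.

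Of the regions seen in neither replicate, 2 reached the top 50 by combined score, and both were about as narrow as the list allows. The first, 2L:13852962-13853962, was 1001 bp wide and scored 1.37, the seventh-highest value among all narrow regions. The other, 2L:4065834-4066840, was 1007 bp wide and scored 0.752. The next-highest in neither replicate was 2L:10955310-10956564, 1255 bp wide, with 0.609. The 48 others of the top 50 were 2077 to 3825 bp wide. Regions in neither replicate had a median width of 1254 bp, and few lay at the edge of a replicate region. Within 1 kb of a region of either replicate there were 99 of the 612, or 16.2%, and 221, or 36.1%, lay more than 10 kb from any.

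Applying the same limits of position and width to each replicate list gave 328 narrow regions in replicate 1 and 534 in replicate 2, a mean of 431.0 ± 146 (SD, n = 2). Median widths were 1831.5 and 1890.5 bp. Of the 328 in replicate 1, 72.0% (66.8 to 76.7%) overlapped a narrow combined region and 25.9% (21.3 to 31.0%) a combined region of 4000 bp or more. For replicate 2 the shares were 81.6% (78.1 to 84.8%) and 16.5% (13.4 to 19.9%). Some sites narrow in a replicate thus belonged to wider regions of the combined list. Any combined region matched 97.9% of the narrow regions of replicate 1 and 98.1% of those of replicate 2.

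Between the replicate lists directly, 244 of the 328 narrow regions of replicate 1, or 74.4% (69.3 to 79.0%), were overlapped by replicate 2. In the other direction 224 of the 534 of replicate 2, or 41.9% (37.7 to 46.3%), were overlapped by replicate 1. Overlapped narrow regions of replicate 1 had a median score of 0.510, and its other narrow regions 0.478. For replicate 2 the medians were 0.628 and 0.478. The upper quartiles were 0.619 and 0.503 in replicate 1 and 0.916 and 0.542 in replicate 2.

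Along the arm the narrow regions were unevenly spread. The body held 62.5 of them per Mb, and over the 18 windows the density ran from 20.0 to 90.0 per Mb with a median of 63.0. The window from 8000001 to 9000000 held the most, 90, followed by 89 from 6000001 to 7000000 and 85 from 19000001 to 20000000. The sparsest, from 17000001 to 18000000, held 20, and those from 14000001 and from 15000001 held 33 and 39.

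**Figure D4:**
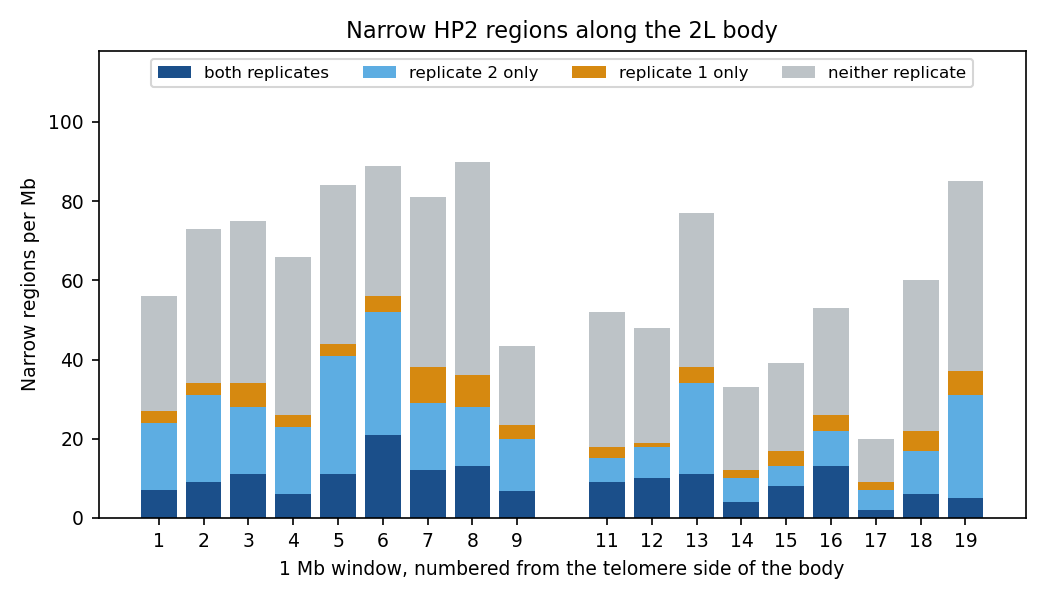
Narrow HP2 regions per Mb in the 18 windows of 1 Mb with at least 0.5 Mb of the 2L body, numbered from the telomere side and stacked by the replicate lists that overlap them; window 10 falls almost wholly in the stretch left out. Densities run from 20.0 per Mb in window 17 to 90.0 per Mb in window 8.

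The telomere side of the body was denser than the centromere side in each replicate. The 8.90 Mb on the telomere side of the left-out stretch held 73.4 narrow combined regions per Mb and the 9.11 Mb on the other side 51.9, a ratio of 1.41. Narrow regions of replicate 1 stood at 21.9 and 14.6 per Mb, a ratio of 1.50, and those of replicate 2 at 36.2 and 23.3 per Mb, a ratio of 1.55. The mean ratio was 1.53 ± 0.04 (SD, n = 2). The share overlapped in both replicates was 14.7% (12.1 to 17.7%) on the telomere side and 14.4% (11.3 to 17.9%) on the other. Over the 18 windows the densities of narrow regions in the replicates had a Spearman's rho of 0.68. The windows share the same libraries and the same mappable sequence, which was not measured.

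The share of regions overlapped in both replicates also differed between windows. It ran from 5.88% (5 of 85) in the window from 19000001 to 24.5% (13 of 53) in the window from 16000001. The window from 6000001 had 21 such regions of 89, or 23.6%, and the largest number of narrow regions in both replicate lists, 31 in replicate 1 and 62 in replicate 2. Counts in single windows are small. In each of the 18 windows replicate 2 overlapped a larger share than replicate 1 with the lists as deposited. With the replicate 2 list cut by score to the length of the replicate 1 list, this held in 0 windows. Replicate 1 then overlapped the larger share in 17.

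Narrow regions stood in company. The median distance to the nearest other narrow region was 1703 bp, edge to edge, and 72.7% (70.0 to 75.3%) had another within 5 kb. Gaps between successive regions had a median of 4231 bp and a mean of 14201 bp, which reflects many short gaps and a few long ones. Of the 1124 gaps, 237 were under 1 kb and 23 over 100 kb. Of the 180 full windows of 100 kb, the 44 fullest (24.4%) held 50% of the regions, and 13 windows held 0. The spacing depended on how neighbours were joined. Merging combined regions within 1 kb left 734 narrow regions with a median distance of 4583 bp, and 52.0% had another within 5 kb.

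**Figure D5:**
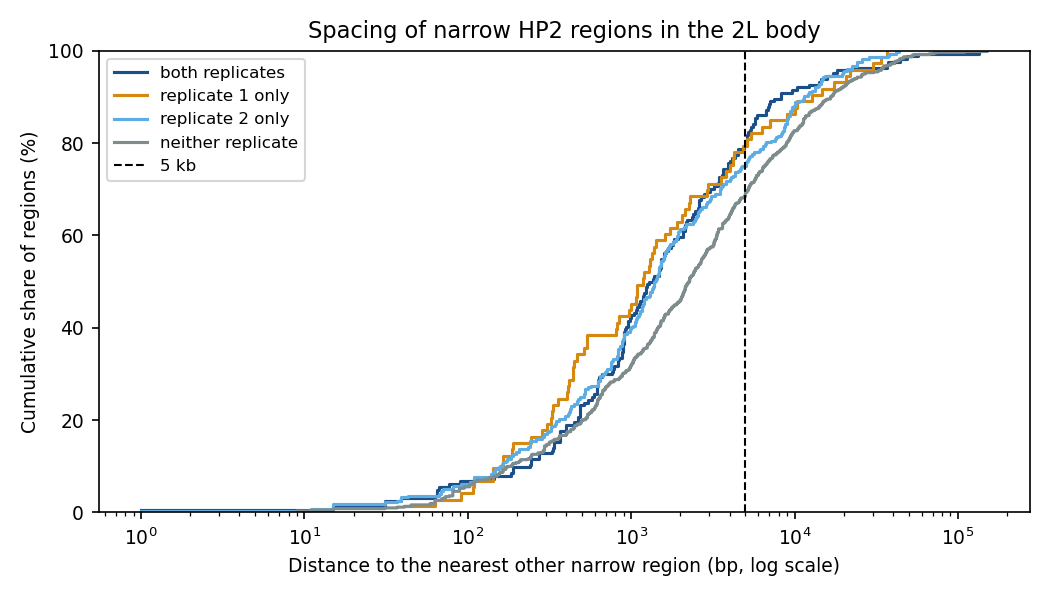
Cumulative share of narrow 2L regions by distance to the nearest other narrow region in bp on a log axis, drawn separately for the 4 overlap groups; the dashed line marks 5 kb. The curve for regions overlapped in neither replicate runs to the right of the others between about 1 and 10 kb, reaching 69.0% at 5 kb against 75.1 to 79.9% for the other groups.

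The densest window of 100 kb, 2L:5000001-5100000, held 22 narrow regions, and 6 of them, the site at 2L:5069876-5072296 among them, were overlapped in both replicates. A further 11 were overlapped in replicate 2 alone and 0 in replicate 1 alone. The next windows, 2L:3000001-3100000 and 2L:6900001-7000000, held 18 each, as did 2L:12000001-12100000. They were not alike in the replicates. None of the 18 at 2L:3000001-3100000 was overlapped in replicate 1, and 6 were overlapped in replicate 2. At 2L:6900001-7000000 replicate 1 overlapped 5 and replicate 2 overlapped 12.

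The longest stretches free of narrow regions lay in the centromere-side part of the body. They were 2L:16987079-17380751 (393673 bp), 2L:17543561-17926255 (382695 bp) and 2L:15769931-16048777 (278847 bp). Each held 0 wider combined regions and 0 regions of either replicate list. The first 2 flanked the site at 2L:17471586-17474720, which stood in a run of 7 regions. Whether reads could be mapped and regions called throughout these stretches was not measured.

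Chaining all combined regions of the body that lay under 5 kb apart gave 225 runs. Of the narrow regions, 266 or 23.6% stood alone, 373 or 33.1% were in runs of 2 to 4 regions and 487 or 43.3% in the 71 runs of 5 or more. The run with the most narrow regions, 2L:13160792-13224456, had 19 regions in 63.7 kb, 17 of them narrow. In it 2 narrow regions were overlapped in both replicates and 9 in neither. Next by number of narrow regions were 2L:7008994-7069002 with 16 regions, all narrow, and 2L:11985794-12063132 with 17, of which 16 were narrow.

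Width and overlap went with company. The median width was 1349 bp for regions alone, 1531 bp in runs of 2 to 4 and 1713 bp in runs of 5 or more. The shares overlapped in neither replicate were 63.5% (57.4 to 69.3%), 55.8% (50.6 to 60.9%) and 48.3% (43.7 to 52.8%) in the same order. The shares overlapped in both were 10.9% (7.42 to 15.3%), 16.4% (12.7 to 20.5%) and 15.2% (12.1 to 18.7%). Combined scores went the other way, with medians of 0.367, 0.345 and 0.343. These differences were not tested, and width moved with them.

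Overlap was similar with and without a wider region nearby. The 281 narrow regions in a run with a region of 4000 bp or more were overlapped in both replicates in 13.2% of cases (9.44 to 17.7%), and the other 845 in 15.0% (12.7 to 17.6%). The shares overlapped in neither were 53.4% (47.4 to 59.3%) and 54.7% (51.2 to 58.1%). Of the 97 wider regions of the body, 85 or 87.6% had a narrow region in their run. Of the 237 narrow regions overlapped in replicate 1, 4 shared 2 best-matching replicate regions. Of the 441 overlapped in replicate 2, 6 shared 3. The 612 overlapped in neither could not be counted in this way.

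Narrow regions of 3L, 3R and the X are set beside those of 2L as values only. They were taken between 1 Mb from the telomere end and 3 Mb from the centromere end of each assembled arm. Unlike on 2L, no stretch inside these limits was left out. The arm 2R was not included. There were 1501 on 3L, 1777 on 3R and 1664 on the X, or 73.1, 74.3 and 90.3 per Mb, against 62.5 on 2L. Median widths were 1553, 1515 and 1564 bp, against 1529 bp. Both replicates overlapped 15.9% (14.1 to 17.9%) on 3L, 15.7% (14.0 to 17.5%) on 3R and 12.3% (10.7 to 13.9%) on the X. Replicate 1 overlapped 22.5%, 21.3% and 15.4%, and replicate 2 overlapped 40.4%, 37.4% and 45.9%, in the same order. The shares overlapped in neither were 53.0%, 57.0% and 51.0%. The median combined score was 0.346 on 3L, 0.350 on 3R and 0.412 on the X, against 0.349 on 2L. The differences between arms were not tested.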

How the data were processed

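The processed data were 3 lists of enriched regions, each region with its borders and the authors' deposited score. Reads were aligned with Bowtie 0.12.7, per the submitters' processing notes. No source used here names the region caller or its threshold, the scale of the score, or how the combined list was made. The files use FlyBase release 5 (per the file headers), printed 1-based. No genome of that release was used, so genes and sequences at the regions are not analysed here. Members were chosen by arm, midpoint and width, and they, the groups and the alternatives were chosen with earlier results of these data known. An overlap needed 1 bp. Where a region met several replicate regions, the highest-scoring was used. Named were the 10 highest-scoring members overlapped in both replicates, the highest in each 1 Mb window, the 3 highest of each other overlap group, the 3 nearest the width limit on each side, and the 3 densest 100 kb windows and longest gaps. Alternatives changed the overlap rule, the score, the width limit, list length, merging and replicates. Overlap counting was tested on simulated regions and returned the planted numbers. Python 3.11.15, numpy 2.4.6, pandas 2.3.3 and scipy 1.17.1 were used.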

Additional observations from a re-analysis of the deposited data

How the results depend on the processing

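The main shares are 14.6% overlapped in both replicates, 54.4% in neither and a mean of 30.1% per replicate, for 1126 regions with a median score of 0.349. Requiring a replicate region to cover at least 50% of the combined region, one way or reciprocally, kept all 3 shares within their counting intervals or the spread between replicates. With replicate regions from the higher-scoring 50% of their list, the shares were 4.17%, 90.5% and 6.84%. With the replicate 2 list shortened to the length of replicate 1 they were 8.79%, 75.1% and 16.8%, and the per-replicate shares, computed after seeing the data, were 21.0% and 12.6% in place of 21.0% and 39.2%. In both cases fewer replicate regions were left to overlap. With widths under 3000 bp, both and neither came to 10.0% and 58.5%. With widths under 2000 bp the 3 shares were 2.87%, 68.6% and 17.1%, and the median score was 0.338. The higher-scoring 50% of the combined list left 285 regions with shares of 42.5%, 38.6% and 51.9% and a median score of 0.436. Merging combined regions within 1 kb left 734 narrow regions, 57.6% in neither and a median score of 0.353. Keeping only regions as wide as the narrowest replicate region, an alternative chosen after seeing the data, gave 21.8%, 35.6% and 43.1% and a median score of 0.344. Leaving out 1 replicate gave a share overlapped in the other of 21.0 to 39.2% and not overlapped of 60.8 to 79.0%. Spearman's rho between the replicate scores ranged from 0.29 to 0.84, the lowest with widths under 2000 bp. The median distance to the nearest narrow region ranged from 1999 to 14897 bp, the longest with the higher-scoring 50% of the combined list, where 24.9% had another within 5 kb. No paired analysis was possible because no result comes from a test and the lists compare no groups. Without read counts, depth cannot be set beside any value.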
